A study of Oryza sativa with 4 samples.

Results

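Shoots of the submergence-tolerant rice line M202(Sub1) were compared after 6 days and after 1 day completely under water. The comparison takes the array at 6 days minus the array at 1 day, gene by gene, on the log2 scale. For each gene the probe set (the group of probes that reads 1 transcript) with the top mean across all 4 arrays of the study was taken. A gene was kept if its highest value reached 5.51, the median of all values and called the level floor here. Of 17905 genes with a probe set, 15426 passed. They are measured on 2 of the 4 arrays of the series, the other 2 being the same times in M202.

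M202 is a japonica cultivar, and M202(Sub1) is its near-isogenic line with the Sub1 submergence tolerance locus introgressed. Seedlings of both genotypes were raised in soil and were 18 days old when they were submerged in a greenhouse, and shoots were harvested after 1 or 6 days. The groups are therefore M202(Sub1) at 1 day, M202(Sub1) at 6 days, M202 at 1 day and M202 at 6 days, each with 1 Affymetrix array of total RNA. All plants were under water, so no value here is relative to plants in air. With 1 array a side there is no replicate check, so the differences carry no error, no test was made, and p-values are not given. "Higher" and "lower" below describe single arrays. Time under water cannot be told apart from plant age, harvest hour or other conditions of the sampling day.

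Submerged shoots lose access to oxygen and light. Plant cells short of oxygen make ATP by glycolysis and regenerate NAD by ethanol fermentation, and they draw the sugar for it from sucrose and starch. Ethylene trapped in the tissue promotes gibberellin-driven elongation in most rice, and the Sub1 locus encodes ethylene response factors that restrain this growth and the use of carbohydrate. Long submergence in dim water also brings leaf yellowing and recovery of carbon and nitrogen from existing cell components.

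Of 6 leaf markers 5 were measured far above the floor on both M202(Sub1) arrays. RBCS, the small subunit of Rubisco, was at 14.28 and 14.16 at 1 and 6 days, the light-harvesting gene CAB2R at 14.11 and 13.84, and the Rubisco activase gene RCAA1 at 13.96 and 14.10. RCABP69, another light-harvesting gene, was the marker that was at least 2-fold lower at 6 days, at 13.40 and 12.21. RBCS1 lay under the floor on all arrays. Some markers of other organs were over the floor too, and since each probe set has its own scale, no organ's level is set against another's. Of 8 endosperm markers 5 were under the floor on all arrays, and the glutelin gene GLUA2 stood at 9.34 and 9.89. Of 6 anther markers 5 were under the floor, with DTM1 at 9.89 and 9.78, and the root silicon channel gene Lsi1 was at 7.49 and 7.33 and the iron carrier gene IRT1 at 7.67 and 7.62. The arrays had like distributions, with medians between 5.48 and 5.54, and 2.67% to 3.53% of the kept genes were under the floor on each. The 3′ probe set of the actin control exceeded its 5′ set by 2.31 at 1 day and 2.52 at 6 days in M202(Sub1), and that of the Gapdh control by 0.60 and 0.81. For ubiquitin this gap was -0.08 and -0.42 and for cyclophilin 0.43 and 0.40, so the controls did not move one way. The 18S and 28S ribosomal RNA probe sets were at 8.84 and 8.87 at 1 day and at 8.16 and 8.32 at 6 days. The part of these values in the results was not tested.

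The upper tail of the differences was longer than the lower tail. After 6 days 964 genes were at least 2-fold higher than at 1 day (6.25% of the genes) and 711 were at least 2-fold lower (4.61%). At 4-fold the counts were 338 higher (2.19%) and 85 lower (0.551%), and at 8-fold 143 (0.927%) and 19 (0.123%). Higher genes thus made up 57.6% of those at least 2-fold apart and 79.9% of those at least 4-fold apart. The centre of the distribution showed no such tilt. The median difference over all genes was 0.01, the quartiles were -0.29 and 0.29, and 51.2% of genes lay above 0 and 48.7% below. The full range ran from -5.30 to 8.01.

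**Figure D1:**
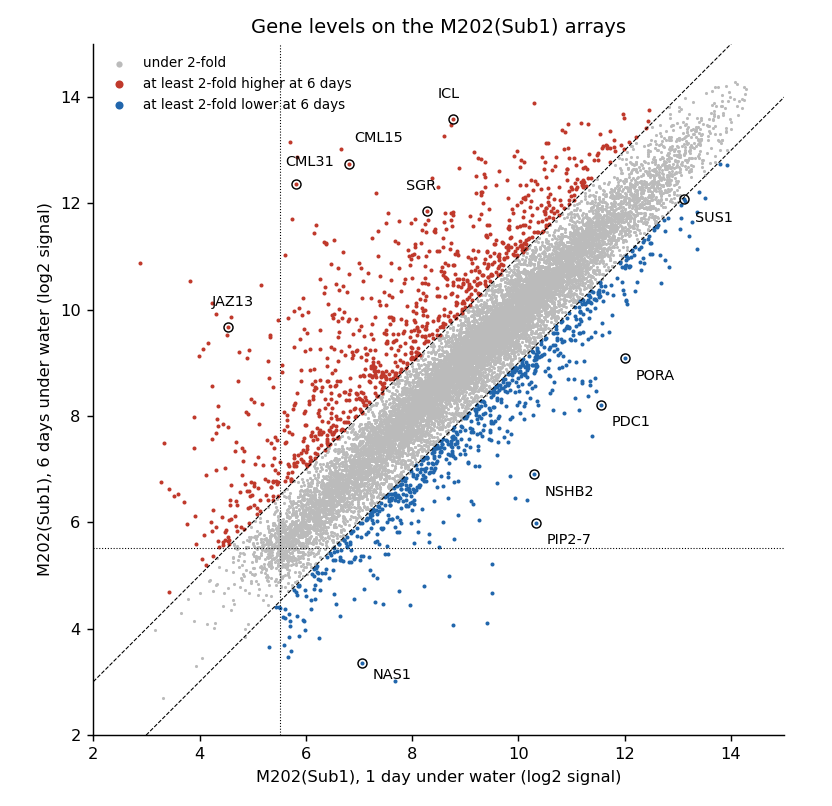
Log2 signal of each of the 15426 genes on the M202(Sub1) array at 1 day (horizontal axis) and at 6 days (vertical axis). Dashed lines mark 2-fold, dotted lines the level floor of 5.51, and red and blue points the 964 higher and 711 lower genes, with 11 named genes circled. Points reach farther above the diagonal than below it.

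Most of these genes were over the level floor on both arrays. Of the 964 higher genes, 832 were over the floor at both times and 128 went from under it to over it. Of the 711 lower genes, 620 were over the floor at both times and 88 ended under it. A value under the floor is near background, and the size of a difference that uses one is uncertain. This applied to 62 of the 338 genes that were 4-fold higher (18.3%) and to 25 of the 85 that were 4-fold lower (29.4%). Where a gene had several probe sets, all sets gave the same sign for 159 of 181 higher genes (87.8%) and for 93 of 115 lower genes (80.9%). The probe set taken may cross-hybridise going by its name for 98 of the higher and 67 of the lower genes. These include BGLU16, SGR, OsC3H33, OSH1, GBSS1, RCABP69, CPK12, BGLU30 and GER8. In bulk shoots a lower value can come from fewer cells of a type or from less RNA per cell, and these cannot be told apart.

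Regulators and sensors made up most of the 12 named genes that were higher by the largest amounts. CML31, which encodes a calmodulin-like calcium sensor, stood at 5.81 at 1 day and 12.36 at 6 days, a difference of 6.54. Its relatives CML15 (6.82 to 12.75) and CML16 (7.55 to 11.82) differed by 5.93 and 4.27. JAZ13, a repressor of jasmonate responses, went from 4.53, under the floor, to 9.67. DREB1B, a transcription factor of the cold and dehydration response, went from 6.35 to 11.27, and the bHLH transcription factor gene BHLH148 from 6.27 to 10.58. A metabolic enzyme also belonged to this group. ICL, the isocitrate lyase that opens the glyoxylate cycle, stood at 8.77 and 13.59, a difference of 4.82. The remaining 5 were SAP17, an A20/AN1 zinc finger protein gene (4.39), the type 2C protein phosphatase genes PP2C30 (4.16), PP2C68 (4.10) and OsPP2C32 (3.67), and the beta-glucosidase gene BGLU16 (3.91). PP2C30 and PP2C68 were under the floor at 1 day.

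Water channels, fermentation genes and genes of nitrogen and iron use were among the 12 named genes that were lower by the largest amounts. PIP2-7, an aquaporin of the plasma membrane, stood at 10.33 at 1 day and 5.99 at 6 days, a difference of -4.33, and PIP2-5 at 10.86 and 8.06. NAS1, which encodes nicotianamine synthase for iron chelation, went from 7.06 to 3.36, under the floor. The nonsymbiotic hemoglobin genes NSHB2 and NSHB1, the fermentation genes PDC1 and Adh2 and the protochlorophyllide oxidoreductase gene PORA belong to this group too and are described with their lists. Nitrogen genes made up 3 of the 12. The glutamate synthase gene GLT2 was at 10.66 and 8.12 (-2.54), the ammonium carrier gene AMT3-3 at 6.57 and 4.46 (-2.11) and the nitrate reductase gene NIA1 at 9.79 and 7.71 (-2.08). The other probe set of NIA1 gave -0.24. The last of the 12, the bHLH gene BHLH172, differed by -2.15. All 24 genes but NAS1 had the same direction in M202.

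**Figure D2:**
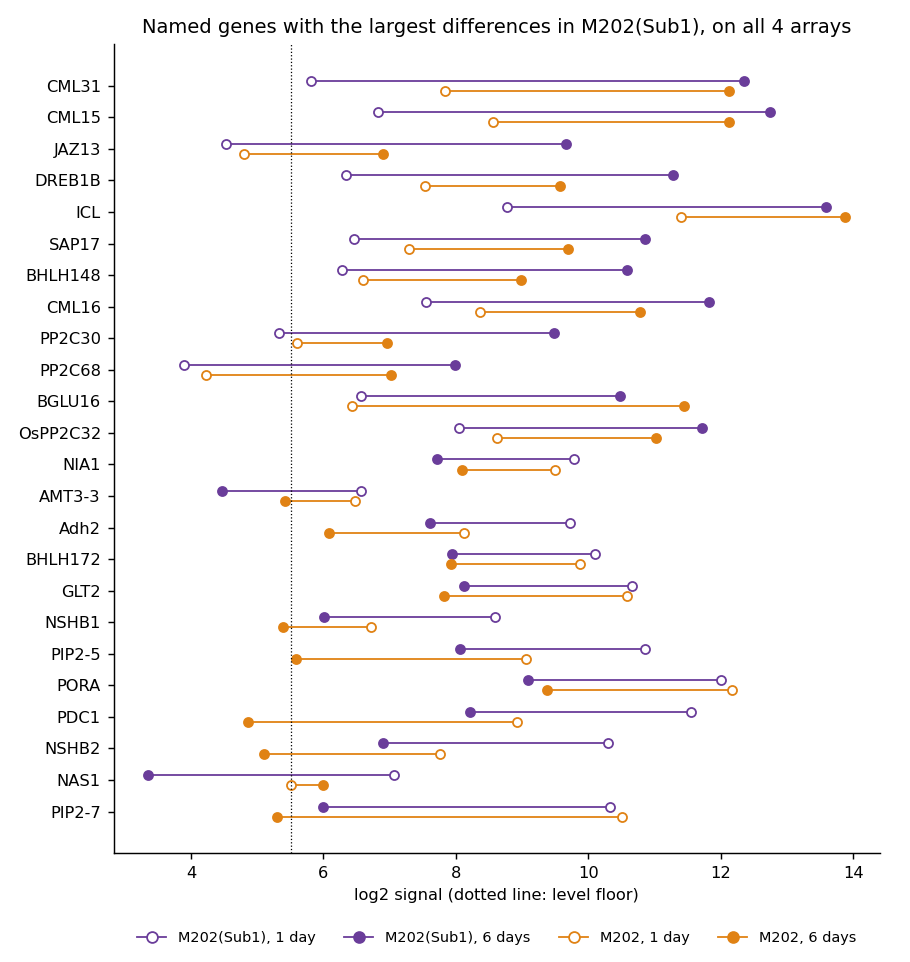
Log2 signal of the 12 named genes with the largest positive and the 12 with the largest negative difference in M202(Sub1), on all 4 arrays (1 value per array, open circles 1 day, filled circles 6 days). In the upper 12 rows the filled circles lie to the right in both lines, and in the lower 12 to the left, except NAS1 in M202. The dotted line is the level floor.

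Ethanol fermentation genes were lower at 6 days than at 1 day. Of 4 genes, 3 were at least 2-fold lower and the median was -1.84, beside 0.01 over all genes. PDC1, a pyruvate decarboxylase gene, stood at 11.55 and 8.21 in M202(Sub1), a difference of -3.34. PDC2, which encodes another decarboxylase, was at 12.31 and 10.75 (-1.56), and the alcohol dehydrogenase gene Adh2 at 9.73 and 7.60 (-2.13). The other decarboxylase gene, PDC3, was near the floor at both times (5.58 and 5.66). Both nonsymbiotic hemoglobin genes, whose proteins scavenge nitric oxide when oxygen is short, were lower as well. NSHB2 was at 10.29 and 6.90 (-3.39) and NSHB1 at 8.58 and 6.01 (-2.58). NSHB1 depends on the probe set, since the difference was -0.03 without sets whose names mark possible cross-hybridisation. All 11 glycolysis genes above the floor lay below 0 by small amounts, with a median of -0.24 and none 2-fold apart. The aldolase gene FBA1 had the largest difference, -0.71, between levels of 12.78 and 12.07.

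Genes that release sugar from sucrose and starch were mixed, with a median of -0.22. Of 18 genes 1 was at least 2-fold higher (5.56%, beside 6.25% of all genes) and 3 were lower (16.7%, beside 4.61%). Sucrose synthases, which split sucrose at low energy cost, were level or lower, between -1.21 and 0.29. SUS1 was at 13.12 and 12.09 (-1.03) and SUS6 at 8.59 and 7.39 (-1.21), the 2 of 6 SUS genes that were at least 2-fold apart. The other probe set of SUS6 gave -0.18. The cell wall invertase gene CIN2 was at 9.47 and 7.73 (-1.74). AMY3D, the alpha-amylase gene of starved cells, was at 4.83, under the floor, and 7.34. Its probe sets differed in sign, and their mean gave 1.20 in place of 2.51. Synthesis of sucrose and starch had a median of -0.08 over 12 genes. The granule-bound starch synthase gene GBSS1 was at -1.03, but its 6 probe sets ran from -1.03 to -0.13. SSII-3 was at 1.03, and its probe sets differed in sign.

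A hexokinase gene and trehalose phosphate phosphatase genes, of sugar sensing, stood higher at 6 days. Of 34 sugar transport and sensing genes 4 were at least 2-fold higher (11.8%, beside 6.25% of all genes) and none lower. Their median was 0.11. The hexokinase gene HXK7 was at 7.99 and 10.60 (2.61), and TPP1 at 9.14 and 11.58 (2.44). TPP7 was at 10.14 and 12.35 (2.21) by a probe set that may cross-hybridise going by its name, and its other set gave 0.75. The 10 SWEET sugar exporter genes above the floor lay between -0.67 and 0.83.

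Genes of carbon and nitrogen recovery were found on both sides. Of 29 genes 7 were higher by 2-fold or more (24.1%, beside 6.25% of all genes) and 5 lower (17.2%, beside 4.61%). Their median was -0.18. On the higher side stood the glyoxylate cycle genes ICL (4.82) and MS, the malate synthase gene (1.60, at 11.33 and 12.93), the glutamate dehydrogenase gene GDH2 (9.45 and 11.90, 2.45), PPDKB (1.36), OAT (1.52) and P5CS2 (1.27). MS, PPDKB, OAT and P5CS2 were named after their values were seen. The ammonium carrier gene AMT2-3 was at 4.31, under the floor, and 6.98. On the lower side stood another ammonium carrier gene, AMT3-3, with NIA1, NAR2.2, a partner of nitrate carriers (-1.28), and, named after their values were seen, the ammonium carrier gene AMT2-1 (-1.18) and the chloroplast glutamine synthetase gene GLN2 (13.14 and 12.05, -1.08).

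Chlorophyll genes differed in opposite directions for synthesis and breakdown. All 15 genes of chlorophyll synthesis lay below 0, with a median of -0.77, although only PORA and PORB were at least 2-fold lower. PORA, which reduces protochlorophyllide in the light, went from about 12 to 9.09 (-2.92), and PORB was at 12.34 and 11.28 (-1.06). PORB was read by a probe set that may cross-hybridise going by its name. Of 4 breakdown genes 3 were at least 2-fold higher. SGR, the stay-green protein that removes magnesium from chlorophyll, was at 8.28 and 11.85 (3.58), the red chlorophyll catabolite reductase gene RCCR1 at 10.10 and 11.85 (1.76), and the chlorophyll b reductase gene NYC1 at 9.53 and 10.91 (1.37). NOL, which encodes the partner of NYC1, did not move by a comparable amount (9.90 and 9.88). Photosynthesis genes were lower by less, with 11 of 14 below 0 and a median of -0.45. The photosystem I subunit gene PSAH was at 13.79 and 12.75 and the light-harvesting gene RCABP69 at 13.40 and 12.21, the 2 members at least 2-fold lower. Like PORB, RCABP69 was read by a probe set that may cross-hybridise going by its name.

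Among abscisic acid genes a pair of phosphatases differed most. Of 25 genes 20 lay above 0, beside 51.2% of all genes, with a median of 0.37. At least 2-fold higher were 5 (20%, beside 6.25% of all genes), and none was lower. These 5 include PP2C30 and PP2C68, phosphatases of the group that dampens abscisic acid signalling, and ABA8OX1, the 8′-hydroxylase that degrades the hormone, at 9.83 and 11.68 (1.85). The other 2 are the dehydrin genes RAB21 (1.13) and LIP9 (1.06), named after their values were seen. Among the 22 genes of the list over the floor at both times 3 were higher. The 10 SAPK kinase genes of the same pathway lay between -0.82 and 0.98. Over the whole type 2C phosphatase family 9 of 55 genes were higher by 2-fold or more (16.4%, beside 6.25% of all genes). Among the 52 over the floor at both times 7 were higher. At least 2-fold lower was 1, OsPP2C07 at -1.01 (1.82%, beside 4.61%).

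Of 32 jasmonate genes 10 were at least 2-fold higher (31.2%, beside 6.25% of all genes) and none lower, while the median was 0.19. Among the 26 that were over the floor at both times 6 were higher. Enzyme genes among the 10 included the lipoxygenase gene CM-LOX2 (6.79 and 9.79) and OPR10, an oxophytodienoate reductase gene (5.17, under the floor, and 8.23). They also included AOS2 (7.39 and 10.09) and AOS3 (4.53, under the floor, and 5.73), named after their values were seen. Of 12 JAZ repressor genes 5 were at least 2-fold higher, from JAZ13 at 5.13 down to JAZ11 at 1.04, which was named after its value was seen. The other 3 were JAZ10, JAZ9 and JAZ12, also named afterwards, at 2.72, 1.85 and 1.77.

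Ethylene and gibberellin genes had medians of 0.02 and 0.03. Of 10 ethylene genes 2 were at least 2-fold higher, the same share (20%) as in the abscisic acid list. ACS2, an ACC synthase of ethylene production, was at 5.55, just over the floor, and 8.82 (3.27), and EIL1B, a transcription factor of ethylene signalling, at 7.36 and 9.02 (1.66). ACO1, which makes ethylene from ACC, stood at 12.36 and 12.41. Of 14 gibberellin genes CIGR1, a GRAS protein gene, was at least 2-fold higher (1.62) and GA20OX2, a gibberellin 20-oxidase gene known in rice for the semidwarf trait, lower (9.34 and 7.83, -1.52). The DELLA repressor SLR1 stood at 10.38 and 10.40 and its relative SLRL1 at 7.07 and 6.83. Of 58 auxin genes 1 was at least 2-fold higher and 2 lower, with IAA6 at 1.53, IAA13 at -1.43 and the auxin carrier gene PIN6 at -1.32. Of 26 cytokinin genes 19 lay above 0, and the cytokinin-activating genes LOGL5 (2.12) and LOGL9 (1.32) and the response regulator gene ORR3 (1.14) were at least 2-fold higher, beside RR5 at -1.04, which ended under the floor.

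Several transcription factor families held genes that were higher at 6 days. All 6 WRKY genes with a matching symbol lay above 0, with 5 at least 2-fold higher and a median of 1.84. WRKY24 was at 8.59 and 11.64 (3.05), WRKY71 at 9.36 and 12.30 (2.94), and WRKY76 at 6.49 and 8.81 (2.32). All 6 NAC genes lay above 0 and 4 were at least 2-fold higher, with NAC3 at 7.94 and 11.01 (3.06), NAC5 at 8.77 and 11.83 (3.06) and NAC45 at 7.23 and 9.54 (2.31). NAC factors are known regulators of leaf senescence and dehydration tolerance. Only genes whose symbol carries the family name were counted, so these are small parts of large families.

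The DREB1 genes, activators of cold and dehydration responses, differed strongly among themselves. DREB1B was at 6.35 and 11.27 (4.93), DREB1E at 6.53 and 9.91 (3.39), DREB1G at 5.03, under the floor, and 8.26 (3.24), and DREB1A, named after its value was seen, at 6.54 and 9.27 (2.73). The fifth, DREB1C, was at 5.85 and 5.36. DREB2A, known from dehydration and heat responses, was at 5.85 and 6.47. Among 11 MYB genes 3 were at least 2-fold higher, which were MYB4 (7.76 and 10.79), MYB2 (7.30 and 9.87) and JAMYB (7.25 and 9.44). Of 25 bHLH and bZIP genes 4 were higher (16%, beside 6.25% of all genes) and 2 lower (8%, beside 4.61%). BZIP52 was at 9.30 and 12.22, and BHLH003 differed by -1.08. Of 52 homeobox and MADS genes 5 were higher (9.62%, beside 6.25% of all genes) and 1 lower (1.92%, beside 4.61%), Hox28 at -1.24. The HD-Zip genes HOX24 (3.27, under the floor, and 6.76) and Hox22 (8.07 and 10.13) were among the higher ones. Among the 46 homeobox and MADS genes over the floor at both times 3 were higher, beside 832 of 14725 genes.

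Calcium sensors differed by class. Of 21 calmodulin-like (CML) genes 10 were at least 2-fold higher and none lower, and their median was 0.96. Of 22 CIPK kinase genes 2 were higher and 1 lower, CIPK12 at -1.59, with a median of 0.13. Of 15 CPK kinase genes 1 was higher and 1 lower, CPK12 at -1.06, and none of the 6 CBL sensor genes was 2-fold apart. The CML genes themselves ran from -0.94 to 6.54, so the class was far from uniform. Over the list of 75 calcium genes 13 were higher by 2-fold or more (17.3%, beside 6.25% of all genes). Lower by as much were 3 (4%, beside 4.61%), the third being the calcium exchanger gene CAX1b (-1.08). These classes were split after the values were seen. Among CCCH and A20/AN1 zinc finger genes 7 of 61 were at least 2-fold higher (11.5%, beside 6.25% of all genes) and none lower. SAP17 (6.47 and 10.86), OsC3H33 (10.45 and 12.86) and SAP5 (7.47 and 9.56) led them.

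Of 39 heat shock genes 32 lay above 0, beside 51.2% of all genes. At least 2-fold higher were 10 (25.6%, beside 6.25% of all genes), and 1 was lower (2.56%, beside 4.61%). Small heat shock protein genes made up 7 of the 10, and heat shock factor genes the other 3. HSP24.1 was at 7.96 and 10.84 (2.88), HSP26.7 at 7.48 and 10.33 (2.86) and the heat shock factor gene HSFB2A at 7.79 and 10.35 (2.55). The lower member, HSFA2C, was at 10.35 and 9.12, but its probe sets differed in sign and their mean gave -0.03. Chaperones of the endoplasmic reticulum showed little difference, with a median of -0.11 over 25 genes, and PDIL1-3 (1.09) and ERDJ3A (1.00) at least 2-fold higher. Of 47 antioxidant genes 4 were higher (8.51%, beside 6.25% of all genes) and 7 lower (14.9%, beside 4.61%), with a median of -0.09. The glutaredoxin gene GRXS5 was at 9.36 and 12.78 (3.41), the glutathione transferase gene GSTU6 differed by 1.61, and the alternative oxidase gene AOX1, which carries electrons past the later steps of respiration, by 1.31. The other probe set of GSTU6 gave 0.62. The peroxidase gene PRX74 was at 11.20 and 9.36 (-1.84), the peroxiredoxin gene PRXIIE-2 at 10.06 and 8.60 (-1.47), and GRXS12 differed by -1.30. Catalase A, named after its value was seen, was at 12.75 and 11.48.

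Aquaporins were level or lower. Of 21 genes none was at least 2-fold higher and 3 were lower (14.3%, beside 4.61% of all genes). All 3 are of the plasma membrane PIP class, namely PIP2-7, PIP2-5 and PIP1-3 (8.33 and 6.95). The other 6 PIP genes lay between -0.87 and 0.18, and the 7 vacuolar TIP genes between -0.89 and 0.27. Cell wall loosening genes, mostly expansins, showed no 2-fold difference in 30 genes, and EXPA5 at 0.87 was the largest. In the cellulose and lignin list 3 of 60 genes were higher (5%, beside 6.25% of all genes) and 5 lower (8.33%, beside 4.61%). The laccase gene LAC24 was at 5.56 and 8.97 and 4CL5, a coenzyme A ligase gene of lignin precursors, at 7.59 and 9.86, and CAD8A differed by 1.47. The laccases LAC4 (-1.45) and LAC3 (-1.40) were on the other side, as was CAD8C (-1.14), whose probe sets differed in sign.

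Cell cycle and histone genes were level at the median, while kinesin, tubulin and ribosomal protein genes had medians below 0. Over 78 genes of the cell cycle and of histones the median was 0.02. At least 2-fold higher was 1 of them, the CDK inhibitor gene KRP5 (7.47 and 8.75), and 3 were lower. These 3 are the B-type cyclins CYCB2-2 (9.44 and 7.56), CYCB1-1 (9.68 and 8.27) and CYCB2-1 (8.41 and 7.24), which drive entry into mitosis. Of 44 kinesin and tubulin genes 29 were below 0, 9 of these at least 2-fold (20.5%, beside 4.61% of all genes), with a median of -0.41. The kinesins KIN12C (9.22 and 7.66), KIN10A (8.26 and 6.78) and KIN14E (8.07 and 6.83) had the lowest values. Of 23 ribosomal protein genes 22 lay below 0, with a median of -0.36, and rpl5 (12.17 and 11.04) was the member at least 2-fold lower.

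Defence genes differed in both directions in M202(Sub1). Of 26 genes 2 were higher by 2-fold or more (7.69%, beside 6.25% of all genes) and 4 lower (15.4%, beside 4.61%), with a median of -0.14. NH1, the rice relative of the Arabidopsis salicylate receptor NPR1, was at 8.71 and 9.80, and the chitinase gene Cht5 at 6.46 and 7.71. The pathogenesis-related gene PBZ1 was at 11.51 and 10.37 (-1.14), and the germin-like genes GER8 at 12.02 and 10.17 (-1.85) and GER2 at 9.81 and 8.59 (-1.22). Of 15 genes of diterpenoid phytoalexins, antimicrobial compounds of rice, 11 passed the floor on some array, but CYP76M7, KSL7, OsMAS and KSL4 did so only in M202 at 6 days and were near background on both M202(Sub1) arrays. Only 6 were over the floor at both times in M202(Sub1). None of these 6 was 2-fold apart, and the highest was CPS4, a copalyl diphosphate synthase gene, at 6.31 and 7.22.

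Metal genes were split. Of 48 genes 7 were higher by 2-fold or more (14.6%, beside 6.25% of all genes) and 4 lower (8.33%, beside 4.61%). Their median was 0.14. NAAT1, an aminotransferase gene of the phytosiderophore pathway, was at 8.58 and 11.19 (2.61), the metal-nicotianamine carrier gene YSL13 at 7.57 and 9.86 (2.29), and the metallothionein gene MT4A at 11.97 and 13.68 (1.71). All 7 metallothionein genes lay above 0. The nicotianamine synthases ran the other way, with NAS2 at 6.51 and 5.10 (-1.42) beside NAS1, and NAS3, the remaining member, below 0 too (-0.30). The vacuolar iron carrier gene VIT1 was at 9.79 and 8.62 (-1.16). Among 39 mineral nutrient genes 4 were higher (10.3%, beside 6.25% of all genes) and 1 lower (2.56%, beside 4.61%). The phosphate-starvation genes SPX5 (4.42, under the floor, and 6.10) and SPX2 (9.64 and 10.83) were higher, as was the phosphate carrier PHT1-1 (1.09), whose probe sets differed in sign, and PHO1-3 was lower (-1.05).

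The other lists differed in how many members were 2-fold apart. Of 15 clock and flowering genes LHY (11.72 and 13.05) and Hd1 (5.58 and 7.73) were at least 2-fold higher and GI (12.45 and 11.39) and DTH8 (5.97 and 4.14, under the floor) lower. The other probe set of LHY gave 0.19. LHY and GI peak at opposite times of day, and the hour of harvest is not given in the labels. Of 24 beta-glucosidase genes 6 were higher (25%, beside 6.25% of all genes). BGLU16 (6.56 and 10.47), BGLU26 (2.50) and BGLU22 (1.55) were at the top, and BGLU30 was lower (-1.21). ABCG48 was the ABC transporter gene of 12 that was at least 2-fold higher (5.64 and 8.02), and CLPD1, a chloroplast chaperone gene, the member of the 25 autophagy and proteolysis genes (10.69 and 12.71). The 7 autophagy (ATG) genes lay between -0.25 and 0.40. No member of the lipid list (19 genes) or of the flavonoid and phenylpropanoid list (8 genes) was 2-fold apart, with medians of 0.01 and -0.38. The largest difference in each was MFP, an enzyme of fatty acid oxidation, at 0.91, and SNAT1, of melatonin synthesis, at -0.71.

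**Figure D3:**
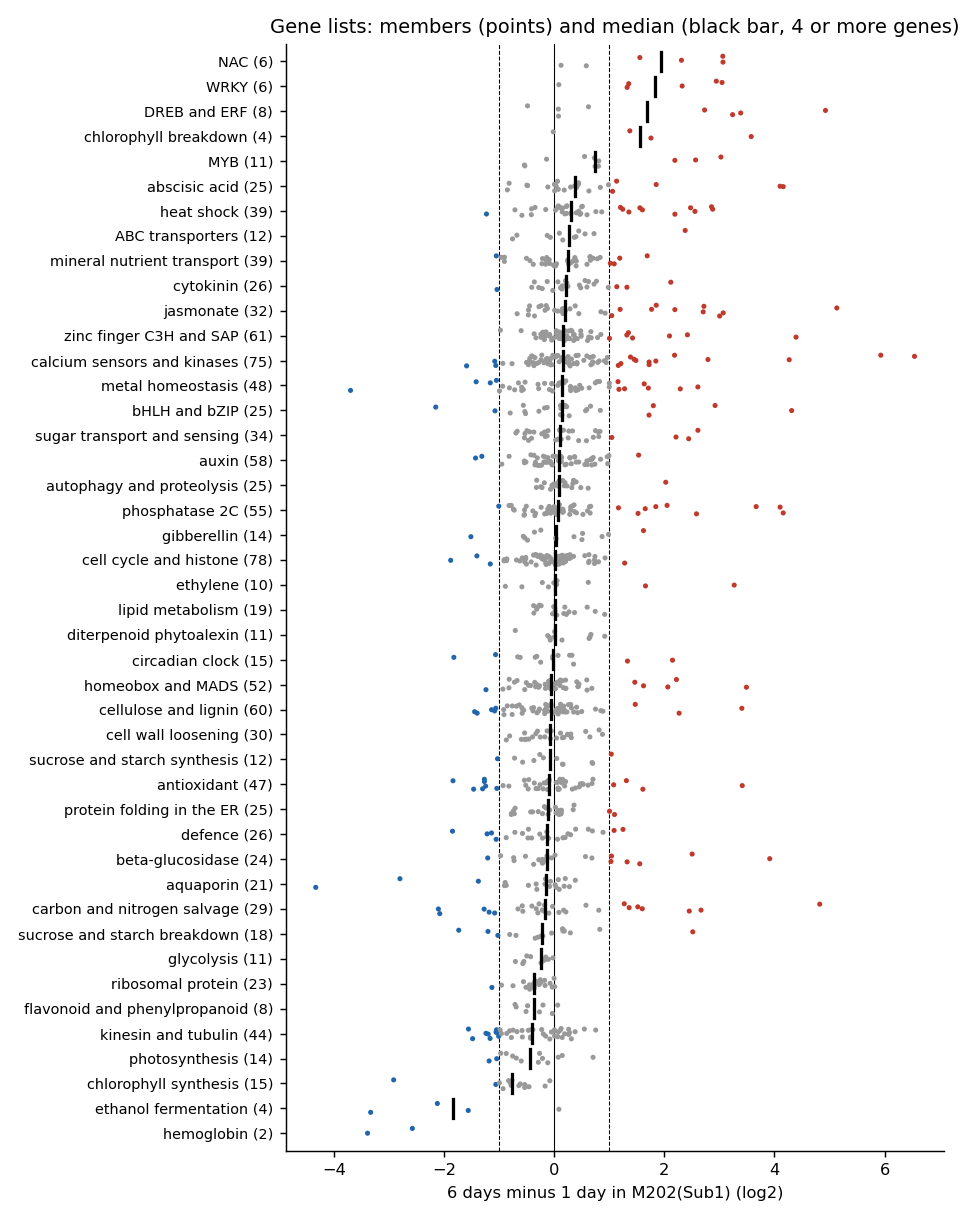
Difference between 6 days and 1 day in M202(Sub1) (log2, horizontal axis) for every member above the floor of 44 gene lists, ordered by their median (black bar, not drawn for hemoglobin with 2 genes), with the number of genes in parentheses. Red and blue points are at least 2-fold higher or lower (dashed lines). Drawn medians run from -1.84 for ethanol fermentation to 1.93 for NAC, and most lists straddle 0.

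The same time difference in M202 uses the other 2 arrays, so the lines share no array in these comparisons, and no difference between the lines was tested. The 2-fold counts of M202 were 1147 higher (7.44%) and 1330 lower (8.62%), so lower genes were fewer in M202(Sub1). The 745 genes higher in both were 77.3% of the genes of M202(Sub1) and 65.0% of those of M202. The 478 lower in both were 67.2% and 35.9%. Directions matched more widely. Of the 964 higher genes of M202(Sub1) 924 (95.9%) lay above 0 in M202, and of the 711 lower genes 691 (97.2%) lay below 0. Over all genes the median difference in M202 was -0.02. Differences under 1.5-fold in M202 were found for 102 of the higher genes (10.6%) and 85 of the lower ones (11.96%). The time difference in M202(Sub1) was at least 2-fold above that of M202 for 648 genes (4.2%) and at least 2-fold below it for 246 (1.59%), together 894 (5.8%).

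**Figure D4:**
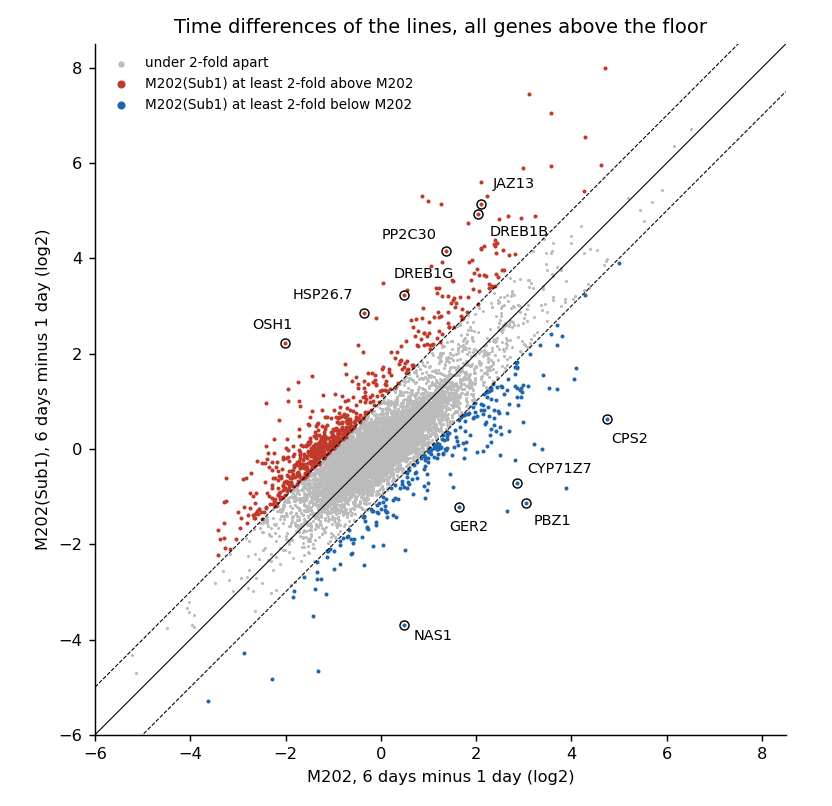
Difference between 6 days and 1 day in M202 (horizontal axis) and in M202(Sub1) (vertical axis), both log2, for the 15426 genes. The solid line marks equal differences and dashed lines 2-fold above or below, and coloured points are the 648 and 246 genes outside them, with 11 named genes circled. Many of the red points lie left of 0, where M202 was lower at 6 days.

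Genes with larger positive differences in M202(Sub1) included stress regulators. JAZ13 went from 4.53 to 9.67 in M202(Sub1) and from 4.79 to 6.89 in M202, and DREB1B from 6.35 to 11.27 and from 7.54 to 9.58. DREB1G went from 5.03 to 8.26 in M202(Sub1) and stayed near the floor in M202 (5.24 and 5.72). PP2C30 went from 5.32 to 9.48 and from 5.60 to 6.96. In these genes the level at 6 days was higher on the M202(Sub1) array. The level at 1 day was lower there, but for JAZ13, DREB1G and PP2C30 it lay near or under the floor in both lines. HSP26.7 was at 7.48 and 10.33 in M202(Sub1) and under the floor in M202 (4.77 and 4.42). Of the 16 small heat shock protein genes above the floor 15 had a higher time difference in M202(Sub1), beside 52.1% of all genes. The medians were 0.41 and -0.27, and this family was split off after the values were seen. HSP26.7 passed the floor only through the M202(Sub1) arrays, and the 15 were not recounted without such genes. Over the whole heat shock list, above the floor or not, 28 of 45 genes had a higher time difference in M202(Sub1). OSH1, a KNOX gene of the shoot meristem, was at 3.76 and 5.97 in M202(Sub1) and at 6.11 and 4.10 in M202, so that its direction differed between the lines around the floor. The KNOX gene OSH43, the other meristem marker above the floor, was at 6.08 and 5.91 in M202(Sub1) and differed by 0.40 in M202.

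Named genes that were at least 2-fold apart in M202(Sub1) and under 1.5-fold in M202 numbered 7 higher and 6 lower. The higher ones were DREB1G, HSP26.7, ABA8OX1 (1.85 beside 0.40 in M202), SPX5 (1.69 and 0.17), KRP5 (1.28 and -0.35), SPX2 (1.19 and 0.45) and SSII-3 (1.03 and 0.15). The lower ones were NAS1 (-3.70 and 0.48), NAS2 (-1.42 and 0.12), LAC3 (-1.40 and -0.36), PIP1-3 (-1.38 and -0.43), PIN6 (-1.32 and 0.12) and NAR2.2 (-1.28 and -0.30). NAS1 stood at 7.06 on the M202(Sub1) array at 1 day and at 5.51 and 5.99 on the M202 arrays, so the gap between the lines involves both times.

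Growth and translation genes were lower with time in M202 by more than in M202(Sub1). For cell cycle and histone genes the median was -0.50 in M202 with 22 of 78 at least 2-fold lower, beside 0.02 and 3 in M202(Sub1). These are 28.2% of the list beside 8.62% of all genes in M202, and 3.85% beside 4.61% in M202(Sub1). The time difference was higher in M202(Sub1) for 55 of the 78, beside 52.1% of all genes. CYCB2-2 differed by -3.38 in M202 and -1.88 in M202(Sub1). The kinesin and tubulin median was -0.64 in M202 beside -0.41, with 36 of 44 genes higher in M202(Sub1), and the ribosomal protein median was -0.68 beside -0.36, with 22 of 23. Cell wall loosening genes had 7 of 30 at least 2-fold lower in M202 (23.3%) and none in M202(Sub1), and EXPA5 differed by -0.86 and 0.87. Chlorophyll synthesis genes had 7 of 15 at least 2-fold lower in M202 (46.7%) and 2 in M202(Sub1) (13.3%), with medians of -0.86 and -0.77. For both of these lists the shares over all genes were 8.62% in M202 and 4.61% in M202(Sub1).

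Defence and phytoalexin genes ran the other way. All 15 phytoalexin genes with a probe set, over the floor or not, had a lower time difference in M202(Sub1), beside 47.9% of all genes. Of the 11 above the floor 9 were at least 2-fold higher in M202, but 4 of the 11 passed the floor only through the M202 array at 6 days and so had to be high there. Of the 6 that were over the floor at both times in M202(Sub1), 4 were at least 2-fold higher in M202 (beside 7.44% of all genes) and none in M202(Sub1). CPS2, a copalyl diphosphate synthase gene, was at 5.48 and 6.11 in M202(Sub1) and at 3.48 and 8.23 in M202, and the P450 gene CYP71Z7 at 7.22 and 6.51 and at 5.85 and 8.72. CYP76M7 stayed under the floor on the M202(Sub1) arrays (5.30 and 5.18) and reached 7.55 in M202. Of 26 defence genes 24 had the lower time difference in M202(Sub1), beside 47.9% of all genes. At least 2-fold higher were 11 in M202 (42.3%, beside 7.44% of all genes) and 2 in M202(Sub1) (7.69%, beside 6.25%). With both M202(Sub1) arrays over the floor these counts were 22 of 24, 10 and 2. The 8 chitinase (Cht) genes were all on that side, with medians of 0.11 in M202(Sub1) and 1.74 in M202. PBZ1 was at 9.26 and 12.31 in M202, the reverse of its direction in M202(Sub1).

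**Figure D5:**
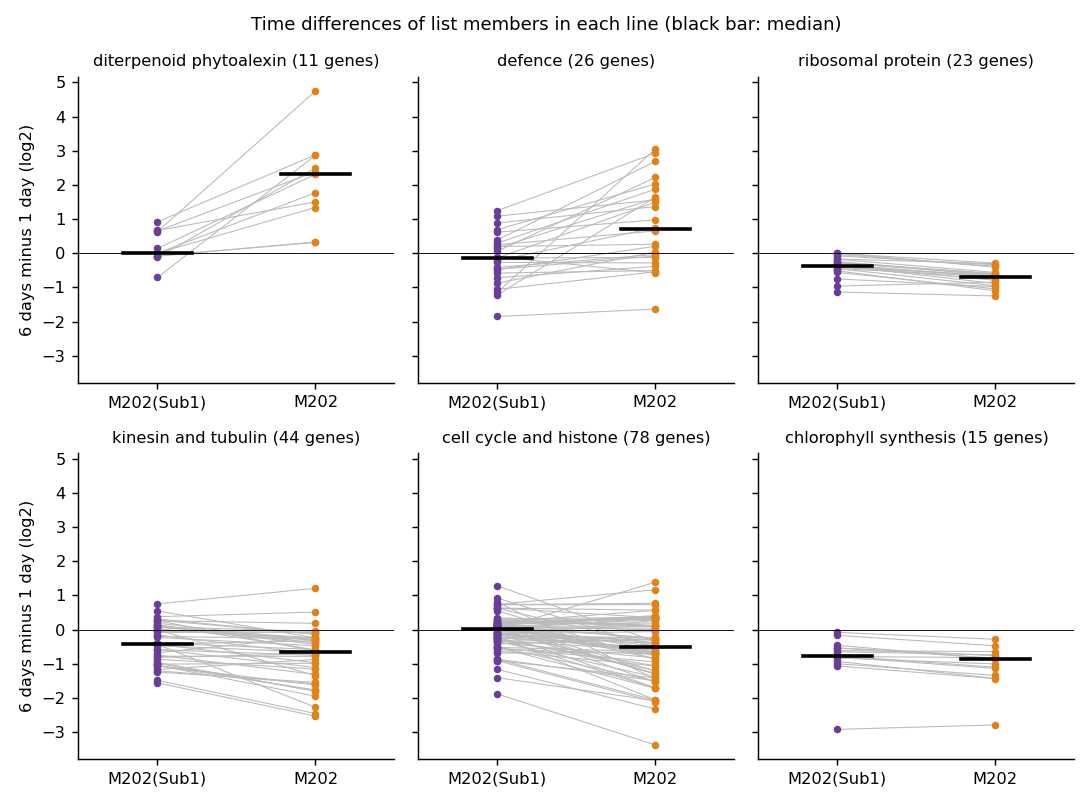
Difference between 6 days and 1 day (log2, vertical axis) of each member above the floor of 6 gene lists in M202(Sub1) and in M202, with lines joining a gene and black bars for medians. Of the 11 phytoalexin members 4 were near background on both M202(Sub1) arrays. These 4 passed the floor only through the M202 array at 6 days, so they had to be high there, and the M202 median includes them. Phytoalexin and defence members lie higher in M202 (medians 2.31 and 0.70, beside 0.00 and -0.14), and most members of the other 4 lists lie lower there.

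Genes that carry a locus number and no symbol held the 4 highest and the 4 lowest differences. LOC4347266 had the highest of all, 8.01, from 2.87, under the floor, to 10.88, and went from 3.69 to 8.39 in M202. LOC4325662 was at 5.70 and 13.15 (7.45), but its other probe set gave 0.29, and LOC4329812 was at 5.83 and 12.88 (7.05). Both were read by sets that may cross-hybridise going by their names. LOC4345988 went from 3.82, under the floor, to 10.55 (6.72), ahead of CML31. LOC4351887 had the lowest difference, -5.30, from 9.41 to 4.11, and its probe sets gave the same sign. LOC4344618 (-4.84), LOC4347708 (-4.71) and LOC4349325 (-4.66) came next, ahead of PIP2-7, and all 4 ended under the floor. These genes were named after their values were seen. Symbols were found for 179 of the 964 higher genes and for 94 of the 711 lower genes, so the lists describe a minority of the differences. Among 12157 probe sets above the floor with no gene in the annotation used, 405 (3.33%) were at least 2-fold higher and 333 (2.74%) lower. Gene order in the rice RefSeq assembly ASM3414082v1 showed no run of 4 or more neighbouring measured genes that were all at least 2-fold higher or all lower, and the share of higher genes per chromosome ran from 4.58% on chromosome 6 to 7.58% on chromosome 1. The genes of the Sub1 locus and ADH1 were not analysed here.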

How the data were processed

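Values are log2 signals per probe set as deposited, 1 for each array. According to the submitters' processing notes they come from RMA, whose version, like the arrays it was run on together, is not given in the sources used here. This method equalises the arrays' distributions, so a change in total RNA cannot be seen, and it compresses differences near background. Of 57381 probe sets 123 controls were set aside, 22436 of the others carry 1 gene in the platform annotation, 95 several, and 34727 are unnamed here. Gene numbers tied all 17905 genes to RefSeq (assembly ASM3414082v1), which gave names and gene order. Differences are log2, 6 days minus 1 day, counted at 1 (2-fold). A simulation with known differences was run as a check.

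The members, the 44 gene lists (symbol patterns) and the 5 marker lists were chosen with earlier results of these data known, and 6 lists beyond the planned ones were added or split off. Named genes are the 12 largest in each direction, up to 3 per direction and list at least 2-fold apart, the 6 largest in each direction against M202, and 16 core genes, of which 13 had a named probe set. Python 3.11.15, numpy 2.4.6, pandas 2.3.3 and matplotlib 3.10.9 were used. The alternatives were other floors, the mean of probe sets, leaving out possibly cross-hybridising sets, median centring, quantile normalization and folds of 1.5 and 4.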

Additional observations from a re-analysis of the deposited data

Results flagged for a closer look

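With 2-fold as the limit, 6 genes were higher with time in M202(Sub1) and lower in M202, and 3 were lower in M202(Sub1) and higher in M202. They were picked out because the single arrays of the lines moved in opposite directions, and the difference was not tested. OSH1 had the largest positive gap, 4.23, with levels of 3.76 and 5.97 in M202(Sub1) and 6.11 and 4.10 in M202. PBZ1 had a gap of -4.19, with 11.51 and 10.37 in M202(Sub1) and 9.26 and 12.31 in M202. GER2 had a gap of -2.86, with 9.81 and 8.59 in M202(Sub1) and 10.22 and 11.86 in M202.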

How the results depend on the processing

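At 1.5-fold 1913 genes were higher and 1887 lower in M202(Sub1), and 2536 were apart from M202. At 4-fold these counts were 338, 85 and 108, and with a floor at the 75th percentile 518 genes were apart from M202 in place of 894. The other 20 recounts stayed within 1.5 times. Centring each array gave 1010 higher and 663 lower genes and quantile normalization 938 and 762, so 60.4% or 55.2% of the 2-fold genes were higher in place of 57.6%. The NAC median was 1.07 with no floor. The DREB and ERF median was 0.35 with no floor, 2.98 with a floor at the 75th percentile and 2.73 with the mean of probe sets, since 6 to 10 genes enter it. The other 297 recomputed list medians moved by less than 1.5-fold. Of 960 recomputed named-gene differences 12 moved by more, none with a change of direction, among them NIA1 (-1.16), GDH2 (3.37) and MYB4 (2.30) with the mean of probe sets. No paired analysis was possible because each group has 1 array. The number of arrays limits the precision, and genes under the floor have the least certain differences.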
